A study of Arabidopsis thaliana with 30 samples.

Results

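The response of an engineered Arabidopsis thaliana root receptor line to rapamycin was set against the response of wild-type roots to the same dose. For each gene, the change between solvent (mock) and 1 µM rapamycin in wild type was subtracted from that change in the RGI1 line. This difference between responses is called the interaction, and it was positive where the line rose more, or fell less, than wild type. It rests on 12 of the study's 30 libraries, chosen by genotype and treatment and not by any measured value, in 4 groups of 3. All 4 groups were Col-0 roots taken from plants 7 days after germination and treated for 4 h. They were wild type with mock, wild type with 1 µM rapamycin, the line RiD-RGI1/BAK1 (the RGI1 line) with mock, and the RGI1 line with 1 µM rapamycin. The other 18 libraries formed an RGI5 set of 12, with its own wild type and 100 nM rapamycin, and an RGF1 set of 6, in which wild type received mock or 100 nM RGF1 peptide. The sources used here name neither the promoters of the engineered genes nor the number of independent lines.

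RGF peptides (root meristem growth factors) are secreted signals that maintain the stem cell region of the root tip. They bind the RGI receptor kinases at the cell surface, which work with the co-receptor BAK1, and the signal passes through a MAP kinase cascade to transcription factors such as RITF1 and PLETHORA. BAK1 also serves receptors of immunity and of brassinosteroid, so genes of defence were followed beside genes of root growth. Rapamycin brings together proteins that carry its binding domains, and in plants it can also act on the TOR kinase through FKBP12, which is why the wild-type response at the same dose was subtracted.

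The engineered genes matched the labels. RGI1 (AT3G24240) stood at 29.9, 32.7 and 32.5 TPM in wild-type mock and at 26.8, 30.2 and 29.9 TPM in wild type with rapamycin, against 209, 204 and 199.5 TPM in line mock and 221, 227 and 237 TPM in the line with rapamycin. Native and engineered copies are counted together, and the interaction of RGI1 was 0.29 (SE 0.08, adjusted p = 0.109). BAK1 (AT4G33430) had means of 53.4 TPM in wild-type mock and 52.6 TPM in wild type with rapamycin. Its means were 183.1 TPM in line mock and 200.5 TPM in the line with rapamycin. BAK1 and FKBP12 had interactions of 0.15 (adjusted p = 0.35) and 0.03 (adjusted p = 0.921). TPM express each transcript as a share of its library and carry no read number. Depth is therefore unknown, and between 19055 and 19331 genes reached 1 TPM. Of 18 root markers, 17 had a mean of at least 1 TPM in each of the 4 groups. The non-coding RNA AT1G15405 took 6.21% to 7.48% of wild-type mock libraries, 6.63% to 9.52% of wild type with rapamycin, 10.7% to 11.2% of line mock and 8.51% to 11.9% of the line with rapamycin. The labels do not say whether replicates were separate plantings, and the p-values reflect only how far these libraries differ within groups, which may be technical variation.

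Genes called higher, with a more positive response in the RGI1 line than in wild type, included 5 of 23 tested enzymes of indole defence metabolism, 9 of 34 glutathione transferases and 6 of 18 chitinases. Genes called lower included 4 of 23 wall-modifying xyloglucan enzymes, 6 of 26 root hair genes, 2 of 10 sulfate transporters and 8 of 32 protein folding genes of the endoplasmic reticulum. In each of these lists most tested members were not called. Every list was chosen with earlier results of these data known. The chitinase, sulfate transporter and protein folding lists were chosen after their values here had been seen. In limma, 245 of 19634 genes tested had an interaction at an adjusted p under 0.05, which is 1.25% (161 higher, 0.82%, and 84 lower, 0.428%). Without adjustment 2308 genes had p under 0.05, against 982 expected with no change. The median interaction of all tested genes was 0.04 on the log2 scale. After median-ratio scaling, which brought that median to 0.00, the calls were 119 higher and 107 lower; quantile normalization gave 121 higher and 111 lower. None of the 245 genes changed sign under the 10 other alternatives or the 12 library omissions, which reuse the libraries that gave the calls. No filter on low values gave 150 calls and a joint fit of all 30 libraries 28. The count fell to 125 without wild-type mock replicate 1, 156 without wild-type rapamycin replicate 2, 116 without line mock replicate 3, 128 without line mock replicate 4 and 158 without line rapamycin replicate 2. Of the 245 genes, 101 were called without each of the 12 libraries in turn, and 13 were also called under all 10 other alternatives. With TPM rescaled after removing AT1G15405, 254 genes were called, 228 of them among the 245.

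IGMT2 (AT1G21120, RefSeq TAIR10.1 chromosome 1, 7395179 to 7396823), an indole glucosinolate methyltransferase of defence metabolism, stood at 9.04, 7.47 and 10.5 TPM in wild-type mock and at 6.37, 5.84 and 5.52 TPM in wild type with rapamycin. In the RGI1 line it stood at 3.71, 2.997 and 2.93 TPM in mock and at 11.1, 9.63 and 13.3 TPM with rapamycin. The 3 line mock libraries were the lowest of the 12, and the line with rapamycin overlapped only wild-type mock. The interaction was 2.07 (SE 0.18, adjusted p = 0.000825), made of a change of 1.55 in the line and of -0.53 in wild type.

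Both neighbours of IGMT2 moved the same way. IGMT4 (AT1G21130) stood at 8.31 to 12.2 TPM in the 6 wild-type libraries, at 5.63, 6.94 and 5.58 TPM in line mock and at 20.7, 21.8 and 15.5 TPM in the line with rapamycin (interaction 1.499, SE 0.19, adjusted p = 0.00307). IGMT3 (AT1G21110) stood at 51.9, 49.9 and 44.1 TPM in line mock, inside or close to the wild-type values of 43.0 to 51.1 TPM, and at 78.9, 84.4 and 92.3 TPM in the line with rapamycin (0.77, SE 0.11, adjusted p = 0.00564). So line mock lay below wild type for IGMT2 and IGMT4 and not for IGMT3. These methyltransferases are close copies, and how their reads were divided is uncertain.

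The phi glutathione transferases GSTF6 and GSTF7, which join glutathione to reactive compounds and are induced in defence, were next. GSTF6 (AT1G02930, chromosome 1, 661088 to 662475) stood at 269.5, 215 and 297 TPM in wild-type mock and at 241, 224 and 187 TPM in wild type with rapamycin. It stood at 121, 109.6 and 91.5 TPM in line mock and at 368, 331 and 354 TPM in the line with rapamycin. Line mock was below and the line with rapamycin above every other library, and the interaction was 1.96 (SE 0.18, adjusted p = 0.000825). GSTF7 (AT1G02920), its neighbour and close copy, stood at 283 to 365 TPM in wild type, at 161, 159.6 and 125 TPM in line mock and at 452, 409 and 427 TPM in the line with rapamycin (1.61, SE 0.16, adjusted p = 0.000825). The same order of groups held for GSTF7. CYP71A12 (AT2G30750), a cytochrome P450 of the indole pathway that leads to camalexin, stood at 3.74 to 7.74 TPM in wild type, at 1.92, 2.02 and 1.04 TPM in line mock and at 9.17, 7.86 and 7.05 TPM in the line with rapamycin. Its interaction was 1.55 (SE 0.27, adjusted p = 0.0146), and the line with rapamycin overlapped the highest wild-type library.

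**Figure D1:**
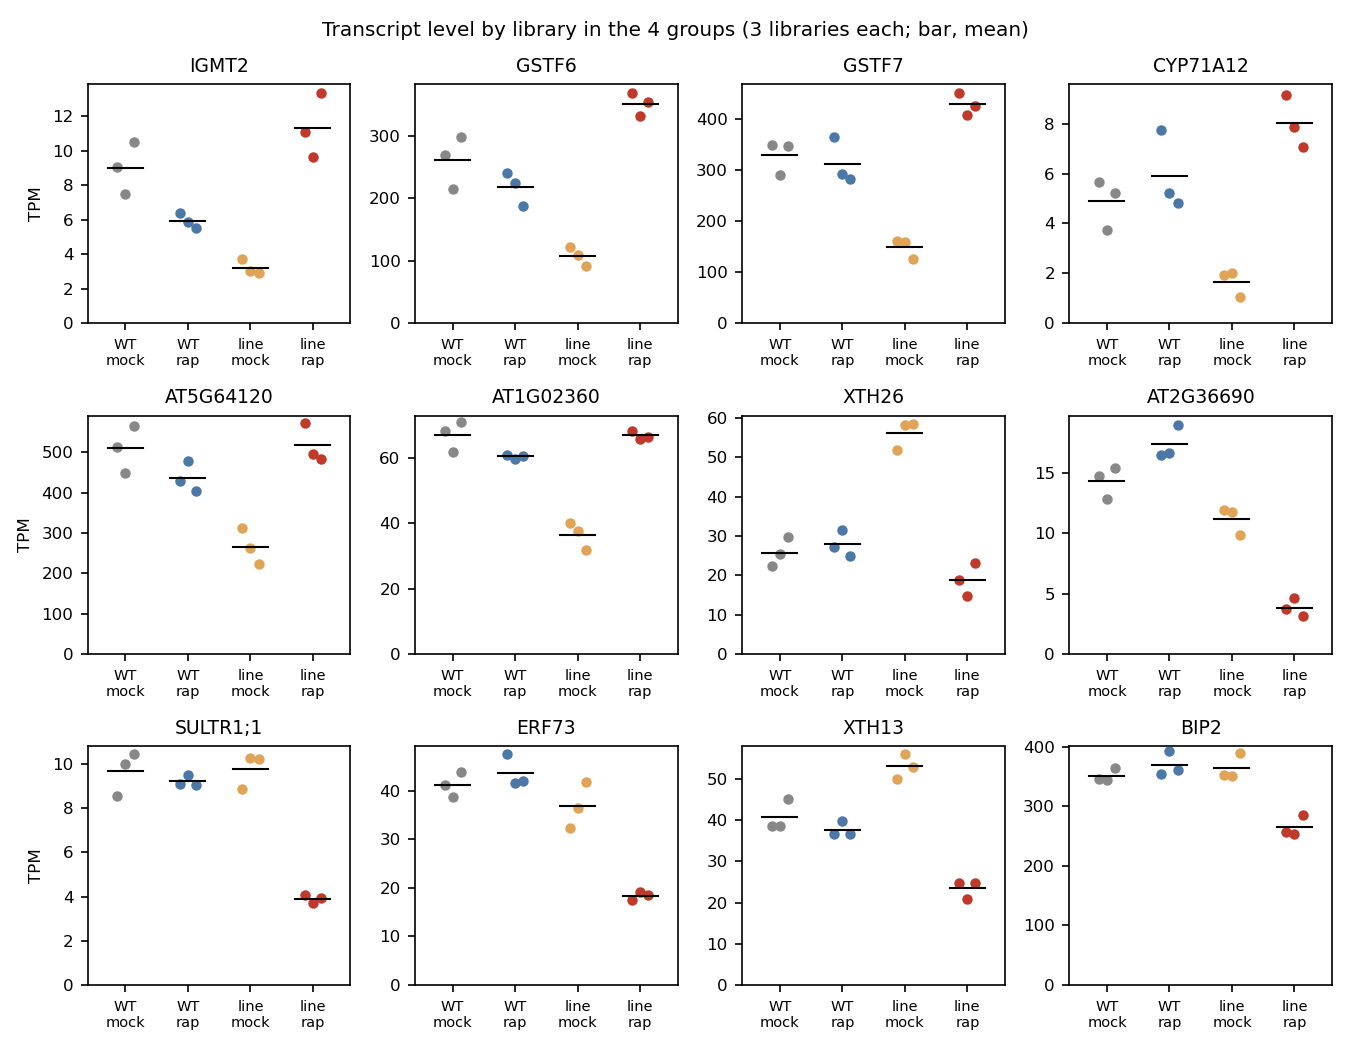
Transcript level in TPM (vertical axes, each starting at 0) of 12 genes in each library of the 4 groups; points are libraries and bars are group means of 3. The first 6 genes were lowest in line mock, while AT2G36690, SULTR1;1, ERF73, XTH13 and BIP2 were lowest in the line with rapamycin, and XTH26 was highest in line mock.

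Promoters of 5 of the genes called higher are printed for their W-boxes, the sites bound by WRKY transcription factors of defence. These sites were more frequent in the promoters of genes called higher than in all promoters. A W-box was counted as TTGACC or TTGACT on either strand, in the 250 bases before and 50 bases after the gene start in RefSeq TAIR10.1. It was found in 92 of 161 promoters of genes called higher (57.1%), in 32 of 84 of genes called lower (38.1%) and in 6387 of 19348 promoters of tested genes (33.0%). Capitals mark the W-boxes, and all 5 genes lie on the minus strand, at chr1:659931-660230 (GSTF7), chr1:7396774-7397073 (IGMT2), chr1:7391554-7391853 (IGMT3), chr1:7400687-7400986 (IGMT4) and chr5:25660958-25661257 (the peroxidase gene AT5G64120).
GSTF7: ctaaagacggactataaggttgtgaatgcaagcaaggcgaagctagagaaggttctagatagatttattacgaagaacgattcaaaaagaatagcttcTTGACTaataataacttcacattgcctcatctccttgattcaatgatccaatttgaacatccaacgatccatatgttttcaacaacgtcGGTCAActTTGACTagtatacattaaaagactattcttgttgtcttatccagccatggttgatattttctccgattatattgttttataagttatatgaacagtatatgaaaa
IGMT2: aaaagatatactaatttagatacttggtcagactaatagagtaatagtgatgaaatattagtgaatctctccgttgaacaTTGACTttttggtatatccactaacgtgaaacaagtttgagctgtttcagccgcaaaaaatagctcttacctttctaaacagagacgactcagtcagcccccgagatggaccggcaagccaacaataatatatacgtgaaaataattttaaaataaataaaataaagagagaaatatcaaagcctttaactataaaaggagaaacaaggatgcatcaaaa
IGMT3: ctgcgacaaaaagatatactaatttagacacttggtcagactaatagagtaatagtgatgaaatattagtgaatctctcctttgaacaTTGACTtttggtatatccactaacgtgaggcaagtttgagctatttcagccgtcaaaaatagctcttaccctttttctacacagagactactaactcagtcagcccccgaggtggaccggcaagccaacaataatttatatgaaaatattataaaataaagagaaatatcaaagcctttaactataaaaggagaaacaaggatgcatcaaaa
IGMT4: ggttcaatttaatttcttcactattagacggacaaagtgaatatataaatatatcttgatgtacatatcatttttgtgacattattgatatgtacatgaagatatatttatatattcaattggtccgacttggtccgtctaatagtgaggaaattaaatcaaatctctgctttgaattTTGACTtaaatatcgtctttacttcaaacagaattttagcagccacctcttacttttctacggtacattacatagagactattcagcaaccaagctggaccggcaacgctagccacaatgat
AT5G64120: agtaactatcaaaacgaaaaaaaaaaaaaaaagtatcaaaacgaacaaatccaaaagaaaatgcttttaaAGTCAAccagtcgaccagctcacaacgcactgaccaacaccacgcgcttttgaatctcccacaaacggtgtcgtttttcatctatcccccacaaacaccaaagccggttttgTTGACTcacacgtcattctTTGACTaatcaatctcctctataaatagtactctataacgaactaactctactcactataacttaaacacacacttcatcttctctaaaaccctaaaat

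GSTF7 and AT5G64120 held 3 matches each and each IGMT promoter held 1. All 5 examples hold a W-box, while the promoters of CYP71A12, PER4 and DOX1, also called higher, hold none. In IGMT2 and IGMT3 the match began 170 and 162 bases before the gene start, and in IGMT4 it began 72 bases before it. Over 22 alternatives in processing and library choice, the share with a W-box ranged from 52.2% to 76.5% in genes called higher and from 26.3% to 43.6% in genes called lower. The as-1 core TGACG was found in 43 of 161 promoters of genes called higher (26.7%), in 20 of 84 of genes called lower (23.8%) and in 4551 of 19348 of all tested genes. The G-box CACGTG was found, in the same order, in 8.07%, 4.76% and 8.6%, and the auxin response element TGTCTC in 14.3%, 9.52% and 13.5%. Of 8208 W-box matches in all promoters, 30 overlapped an as-1 core. No test of enrichment was made, and a match is not evidence of binding. The authors' build is unknown, so coordinates are those of RefSeq alone.

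**Figure D2:**
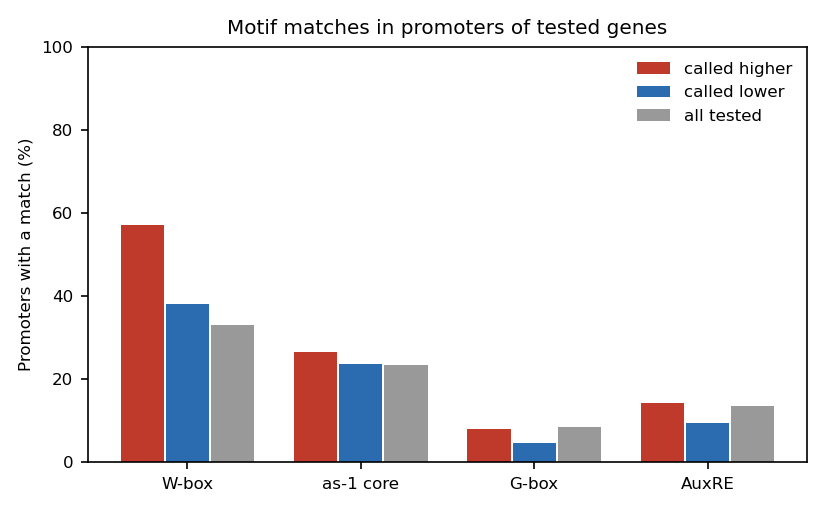
Share of promoters with a match to each of 4 motifs (vertical axis, %), for genes called higher, genes called lower and all tested genes. The W-box bar of genes called higher stands at 57.1% against 33.0% in all tested genes, and the 3 other motifs differ less between the sets.

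In all, 9 glutathione transferase genes were called higher, among 34 of the tau and phi classes tested, and none lower. They were GSTF2, GSTF6, GSTF7, GSTU1, GSTU2, GSTU4, GSTU10, GSTU24 and GSTU25, and 0.82% of all tested genes were called higher. The median interaction of the 34 was 0.28 against 0.04 for all genes. Of the 34, 21 stood above 0, as did 12328 of all 19634 tested genes, a similar share. GSTU10 (AT1G74590) stood at 12.7 to 15.3 TPM in wild type, at 9.52, 8.30 and 8.35 TPM in line mock and at 21.8, 19.0 and 18.16 TPM in the line with rapamycin (1.04, SE 0.12, adjusted p = 0.00159). Under median-ratio scaling 7 of the 34 were called, and under quantile normalization 8.

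Of 23 tested enzymes of indole glucosinolates and camalexin, 5 were called higher (IGMT2, IGMT3, IGMT4, CYP81F2 and CYP71A12), and the median of the 23 was -0.01. CYP81F2 (AT5G57220), the P450 that hydroxylates indole glucosinolates ahead of the methyltransferases, stood at 5.85 to 7.74 TPM in wild type, at 2.64, 2.85 and 2.70 TPM in line mock and at 6.80, 4.65 and 5.197 TPM in the line with rapamycin (0.96, SE 0.16, adjusted p = 0.0138). Here the line with rapamycin overlapped wild type and line mock lay below it. Pattern-triggered immunity, the defence programme started by microbial patterns, had 3 of 27 tested genes called higher (CYP71A12, CYP81F2 and PER4), with a median of 0.15. CYP71A12 and CYP81F2 are also counted in the indole list above. Over all tested genes 0.82% were called higher. WRKY33 (AT2G38470), a regulator of camalexin synthesis, had an interaction of 0.48 (SE 0.11, adjusted p = 0.0687). In the WRKY family 2 of 47 tested genes were called, both higher, against 0.82% of all tested genes called higher. WRKY45 (AT3G01970) stood at 10.7 to 15.9 TPM in wild type, at 10.6, 10.8 and 12 TPM in line mock and at 25.7, 25.6 and 22.6 TPM in the line with rapamycin (0.91, SE 0.17, adjusted p = 0.0209). WRKY6 (AT1G62300) differed by 0.41 (SE 0.09, adjusted p = 0.0391). With single libraries left out, WRKY45 kept its call in 8 of 12 fits and WRKY6 in 2.

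Genes annotated as peroxidases, most of them secreted enzymes that use hydrogen peroxide in wall cross-linking and defence, split in direction. Of 52 tested with that annotation, 8 were called higher and 4 lower, against 0.82% and 0.428% of all tested genes, with a median of 0.02. The annotation takes in DOX1, which is among the 8, and leaves out RHS18, RHS19 and AT4G30170, peroxidase genes listed under other names that were called lower. AT5G64120 stood at 405 to 566 TPM in wild type, at 312, 263 and 222 TPM in line mock and at 574, 496 and 484 TPM in the line with rapamycin (1.19, SE 0.17, adjusted p = 0.00544). AT5G39580 had an interaction of 1.29 (SE 0.19, adjusted p = 0.00684). The alpha-dioxygenase DOX1 (AT3G01420), which oxidises fatty acids and carries a peroxidase name in the annotation, stood at 629.8 to 690.1 TPM in wild type, at 402, 371 and 344 TPM in line mock and at 739.6, 892 and 656 TPM in the line with rapamycin (1.05, SE 0.13, adjusted p = 0.00269). In all 3, line mock lay below every wild-type library while the line with rapamycin overlapped wild type. Among the 4 called lower, AT1G34510 stood at 45.0 to 59.5 TPM in wild type, at 79.5, 80.3 and 82.7 TPM in line mock and at 38.1, 35.0 and 43.6 TPM in the line with rapamycin (-1.10, SE 0.14, adjusted p = 0.00286). AT1G05240 (-0.62, SE 0.08, adjusted p = 0.00331) also had its highest values in line mock and its lowest in the line with rapamycin.

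Chitinases, which cut fungal cell walls, had 6 of 18 tested members called higher and none lower, against 0.82% of all tested genes called higher. Median-ratio scaling and quantile normalization each called 5 of the 18 higher. AT1G02360 stood at 59.7 to 71.0 TPM in wild type, at 40.2, 37.5 and 31.8 TPM in line mock and at 68.3, 65.8 and 66.5 TPM in the line with rapamycin (1.01, SE 0.10, adjusted p = 0.000825). The line with rapamycin lay within the wild-type range and line mock below it. For CHI (AT2G43570), with 26.5 to 32.1 TPM in wild type, rapamycin moved the line from 12.1, 13.9 and 10.4 TPM to 20.3, 20.2 and 18.6 TPM (0.85, SE 0.12, adjusted p = 0.00432), still below wild type. Berberine bridge enzyme-like oxidases had 4 of 16 called higher and none lower. Median-ratio scaling called 3 of the 16 higher and quantile normalization 4. Both of these lists were chosen after their values had been seen.

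Xyloglucan endotransglucosylase/hydrolases (XTH), which cut and rejoin xyloglucan chains of the wall, had 4 of 23 tested members called lower and none higher, with a median of -0.01. Over all tested genes 0.428% were called lower. XTH26 (AT4G28850, chromosome 4, 14244290 to 14246037) stood at 22.3 to 31.6 TPM in wild type, at 51.9, 58.1 and 58.4 TPM in line mock and at 18.8, 14.8 and 23.1 TPM in the line with rapamycin. Line mock was above every other library, the line with rapamycin overlapped wild type, and the interaction was -1.65 (SE 0.20, adjusted p = 0.002). XTH13 (AT5G57540) stood at 36.6 to 45.0 TPM in wild type, at 50.1, 56.1 and 52.9 TPM in line mock and at 24.8, 20.9 and 24.8 TPM in the line with rapamycin (-1.03, SE 0.11, adjusted p = 0.00095). Its neighbour and close copy XTH12 (AT5G57530) had an interaction of -0.82 (SE 0.14, adjusted p = 0.0138), and XTH14 one of -0.47 (SE 0.09, adjusted p = 0.0282; called in 5 of the 12 omissions). For XTH12 and XTH13, line mock lay above and the line with rapamycin below all other libraries.

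Of 26 root hair genes tested, 6 were called lower (XTH26, FLA6, RHS13, RHS18, RHS19 and MOP10), against 0.428% of all tested genes. Only 1 was called higher (RSL1, a transcription factor of root hair initiation), 19 were not called, and the median was -0.29. RHS19 (AT5G67400), a root hair-specific peroxidase, stood at 141 to 165 TPM in wild type, at 172, 163 and 167 TPM in line mock and at 111, 102 and 112 TPM in the line with rapamycin (-0.58, SE 0.09, adjusted p = 0.00956). FLA6 (AT2G20520), a fasciclin-like arabinogalactan protein, stood at 4.59 to 6.82 TPM in wild type and moved in the line from 5.93, 7.16 and 8.13 TPM to 2.101, 1.33 and 2.85 TPM (-1.22, SE 0.25, adjusted p = 0.0347). For both genes the line with rapamycin lay below all other libraries. With single libraries left out, FLA6 kept its call in 3 of 12 fits, RHS13 and RHS18 in 2 and RSL1 in 1. RSL4, the main regulator of root hair length, differed by -0.26 (adjusted p = 0.119). In whole roots, fewer root hair cells and less RNA per root hair cell cannot be told apart.

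Several other genes had their lowest values in the line with rapamycin. SULTR1;1 (AT4G08620), a high-affinity sulfate uptake transporter of the root, stood at 8.57 to 10.5 TPM in wild type, at 8.87, 10.3 and 10.2 TPM in line mock and at 4.08, 3.70 and 3.94 TPM in the line with rapamycin. Its interaction was -1.08 (SE 0.11, adjusted p = 0.000825), and line mock and wild type overlapped. The sulfate transporter gene AST56 (AT1G77990) was the other called lower (-0.65, SE 0.11, adjusted p = 0.0123) among 10 tested, a list chosen after its values had been seen. Over all tested genes 0.428% were called lower. AT2G36690, a dioxygenase gene, stood at 12.9 to 18.9 TPM in wild type, at 11.9, 11.8 and 9.87 TPM in line mock and at 3.71, 4.61 and 3.13 TPM in the line with rapamycin (-1.61, SE 0.16, adjusted p = 0.000825). For AT2G36690 line mock also lay below wild type.

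The core hypoxia genes, induced in plants when oxygen is short, had 2 of 13 called lower, against 0.428% of all tested genes. Of the 13, 12 stood below 0, as did 7306 of all 19634 tested genes, and the median of the 13 was -0.65. ERF73 (AT1G72360), an ethylene response factor of that group, stood at 38.6 to 47.6 TPM in wild type, at 32.4, 36.4 and 41.9 TPM in line mock and at 17.39, 19.1 and 18.6 TPM in the line with rapamycin (-1.04, SE 0.12, adjusted p = 0.00181). ACO1 (AT2G19590), which makes ethylene, was the other (-0.65, SE 0.11, adjusted p = 0.0123). ADH1 (AT1G77120), alcohol dehydrogenase, had a larger estimate of -1.12 that missed the threshold (adjusted p = 0.0913).

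Protein folding genes of the endoplasmic reticulum were listed after their values had been seen. Of 32 tested, 8 were called lower, against 0.428% of all tested genes, and none higher, with a median of -0.29. They were the chaperones BIP1, BIP2 and AT4G16660, the calnexins CNX1 and AT5G07340, the disulfide isomerase PDIL2-3 and the nucleotide-sugar transporters AT2G02810 and AT1G14360. BIP2 (AT5G42020), an HSP70 chaperone, stood at 345 to 393 TPM in wild type, at 352, 351 and 390.0 TPM in line mock and at 256, 253 and 285 TPM in the line with rapamycin (-0.53, SE 0.09, adjusted p = 0.0123). Only the line with rapamycin stood apart. BIP1 differed by -0.47 (SE 0.09, adjusted p = 0.0264; called in 3 of the 12 omissions), and BIP1 and BIP2 are close copies. Median-ratio scaling called 12 of the 32 lower and quantile normalization 13. The stress regulator genes BZIP60 and BZIP28 differed by -0.03 (adjusted p = 0.891) and 0.15 (adjusted p = 0.392).

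**Figure D3:**
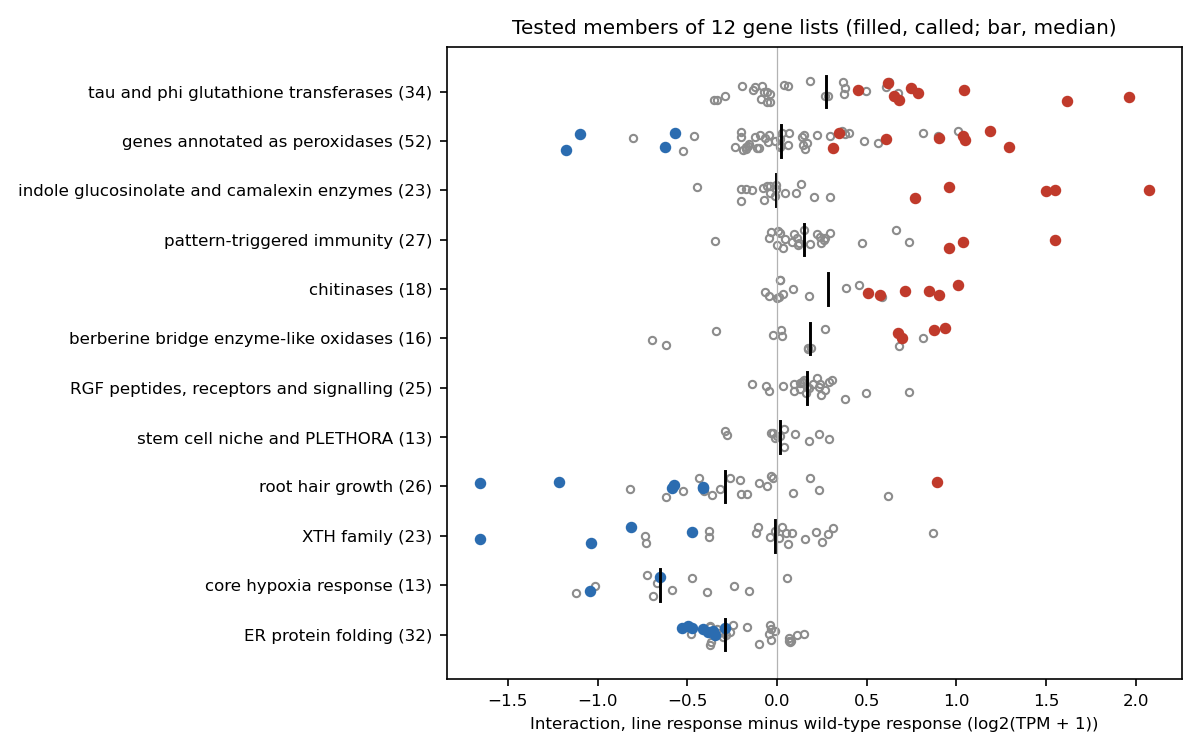
Interaction on the log2(TPM + 1) scale (horizontal axis) of the tested members of 12 gene lists, with the number tested in parentheses; filled points were called, red higher and blue lower, and bars are medians. Called members of the glutathione transferases and chitinases lie on the right, those of the root hair, hypoxia and endoplasmic reticulum lists on the left except RSL1, and RGF signalling genes have none called.

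The genes called higher and the genes called lower differed in which group stood apart. In 130 of the 161 genes called higher, the 3 line mock values lay below all 9 other libraries, where 5.32% of all tested genes did so. In 45 of the 161 the line with rapamycin lay above all others (2.17% of all tested genes). In 65 of the 84 genes called lower, the line with rapamycin lay below all others (3.4% of all tested genes), and in 24 line mock lay above all others (0.54%). These genes were called from the same 12 libraries, so the counts describe them and test nothing. Against the range of the 6 wild-type libraries, the mean of the line with rapamycin lay within it in 69 of the 161 genes called higher, above it in 68 and below it in 24. Over all tested genes these shares were 59.7% within, 10.05% above and 30.3% below. For the 84 genes called lower the mean of the line with rapamycin lay below the wild-type range in 70, within it in 12 and above it in 2.

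**Figure D4:**
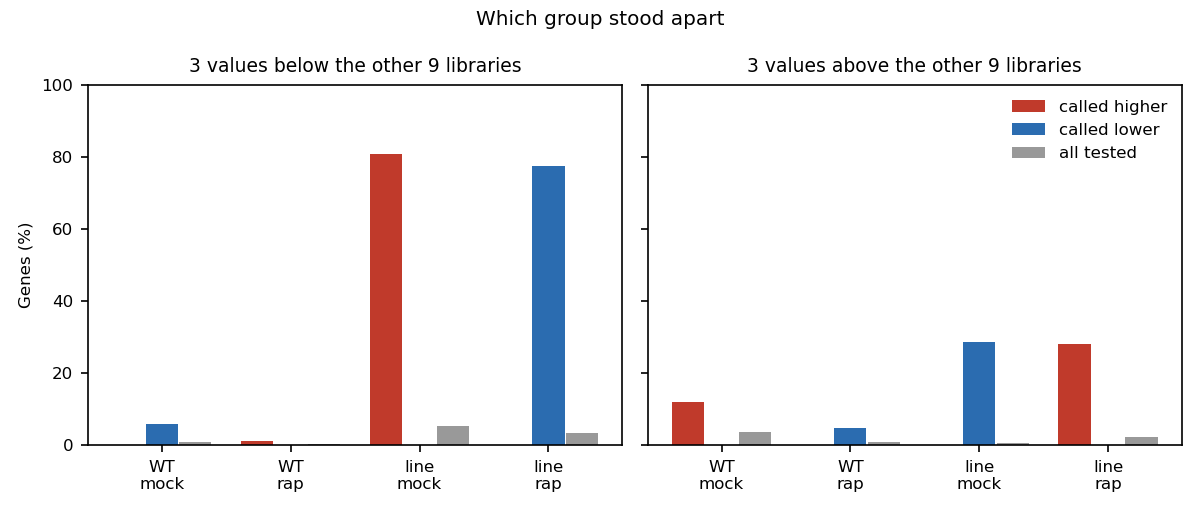
Share of genes (vertical axis, %) in which the 3 values of a group lay below (left) or above (right) all 9 other libraries, for genes called higher, genes called lower and all tested genes. The tallest bars are line mock below for genes called higher, 130 of 161 genes, and the line with rapamycin below for genes called lower, 65 of 84 genes.

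The 4 simple comparisons share libraries with the interaction and with each other, so they are set side by side as values. The genes called higher had a median change of 0.54 with rapamycin in the line and of -0.10 in wild type, and stood at a median of -0.51 in line mock against wild-type mock and of 0.16 in the line against wild type with rapamycin. The genes called lower had medians of -0.48, 0.08, 0.12 and -0.44 in the same order. The change in the line was the greater in size in 153 of the 161 genes called higher and in 80 of the 84 called lower. In wild type, rapamycin against mock gave 0 calls in limma, while 1290 genes had an unadjusted p under 0.05 and 982 were expected. The smallest adjusted p there was 0.113. In the line, rapamycin against mock gave 796 calls (4.05%), 503 higher (2.56%) and 293 lower (1.49%). In mock the line differed from wild type in 3239 genes (16.5%), 393 higher (2.0%) and 2846 lower (14.5%). With rapamycin it differed in 1580 (8.05%), 372 higher (1.89%) and 1208 lower (6.15%).

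**Figure D5:**
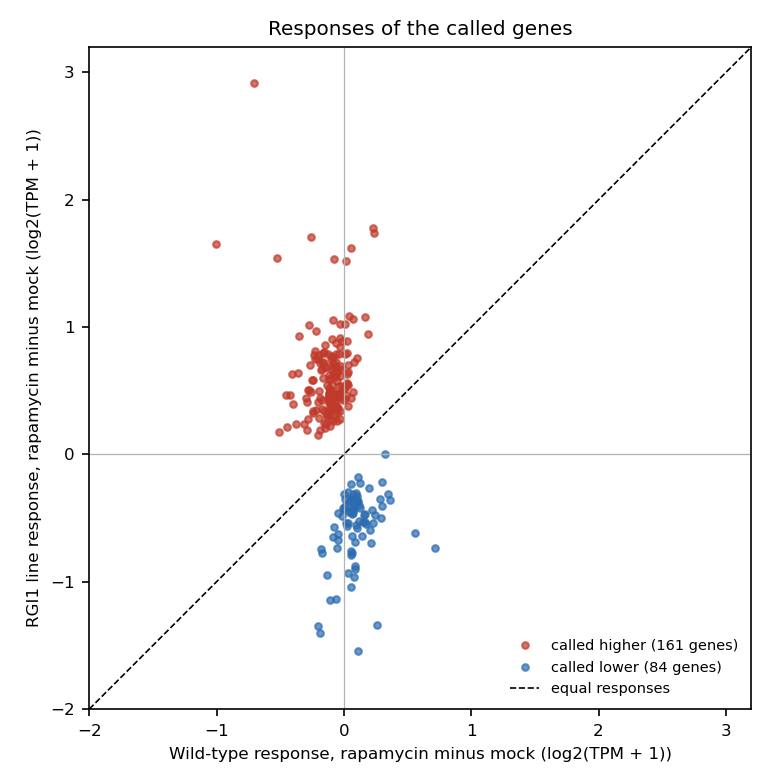
Change with rapamycin on the log2(TPM + 1) scale in wild type (horizontal axis) and in the RGI1 line (vertical axis) for the 245 called genes, each point a gene; the dashed line marks equal responses. Points spread along the vertical axis, and the wild-type changes have medians of -0.10 for genes called higher and 0.08 for genes called lower.

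The RGF pathway itself had no called member. Of 25 tested RGF peptides, receptors and signalling genes, 0 were called, 22 stood above 0 and the median was 0.17. Over all tested genes 1.25% were called, 12328 of 19634 stood above 0 and the median was 0.04. At that share of calls, 0 in a list this short says little about its members, here and in the short lists below. RGF7 had the largest estimate (0.73, adjusted p = 0.0656), with a mean of 43.0 TPM in wild-type mock, 36.6 TPM in wild type with rapamycin, 15.5 TPM in line mock and 22.03 TPM in the line with rapamycin. RITF1 (AT2G12646) differed by 0.31 (SE 0.15, adjusted p = 0.437). PLT1 (AT3G20840) and PLT2 (AT1G51190), the PLETHORA factors of the stem cell niche, differed by 0.01 (SE 0.11, adjusted p = 0.977) and -0.02 (SE 0.11, adjusted p = 0.963). The lateral root factors LBD16, LBD29 and GATA23 differed by 0.08 (adjusted p = 0.891), -0.44 (SE 0.12, adjusted p = 0.112) and 0.66 (SE 0.20, adjusted p = 0.176), and PUCHI was too low to be tested. No gene was called among 13 of the stem cell niche, 22 of lateral root initiation, 17 of the TOR pathway, 30 of the cell cycle or 304 nuclear genes whose annotation names a ribosomal protein, some of them organellar. Of 18 auxin response genes and 19 jasmonate genes none was called, though median-ratio scaling and quantile normalization each called 1 lower in both lists. None of 18 tested photosynthesis genes, markers of green shoot tissue, was called. The summed level of the 25 on the list, 0 of them at 0 in all 12 libraries, was 197 to 233 TPM in wild-type mock, 211 to 214 TPM in wild type with rapamycin, 271 to 312 TPM in line mock and 221 to 345 TPM in the line with rapamycin. The part of these markers in the results was not tested.

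The same genes were then read in the other libraries, which share none with the 12. The RGI5 line (RiD-RGI5/BAK1) received 100 nM rapamycin, a lower dose than the 1 µM used here, so sizes are not compared. Its interaction against its own wild type gave 0 calls in limma among 19652 genes, although 2130 genes had an unadjusted p under 0.05 against 983 expected. A joint fit of all 30 libraries gave 127. Leaving out its wild-type mock replicate 4 gave 48 calls and leaving out its line mock replicate 1 gave 1. Of the genes called higher above, 126 of 160 tested (78.75%) had an RGI5 interaction above 0, as did 65.4% of all genes. Of those called lower, 47 of 83 (56.6%) lay below 0, as did 34.6% of all genes. RGF1 against mock in wild type gave 27 calls among 19274 genes (0.14%), 15 higher (0.0778%) and 12 lower (0.0623%). With RGF1, 98 of 159 genes called higher (61.6%) stood above mock, as did 34.2% of all genes, and 70 of 83 called lower (84.3%) stood below, as did 65.8% of all genes. These shares are descriptions without a test. In the root hair list 21 of 26 genes had an RGI5 interaction below 0, and in the hypoxia list 1 of 13 did. XTH26 and FLA6 had RGI5 interactions of -1.04 (SE 0.58, limma adjusted p = 0.539) and -1.64 (SE 0.46, adjusted p = 0.287). For XTH26 the change with rapamycin was -0.25 (SE 0.41) in the RGI5 line and 0.79 (SE 0.41) in its wild type, neither of them called. In the RGI1 set these changes of XTH26 were -1.54 and 0.11, and a difference between the sets was not tested. For FLA6 the change was -1.23 in the RGI5 line and 0.41 in its wild type. GSTF6, GSTF7 and SULTR1;1 had RGI5 interactions of -0.17 (SE 0.41), -0.11 (SE 0.44) and -0.14 (SE 0.13).

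Some called genes lay side by side in the genome. Of the 161 called higher, 19 (11.8%) had a neighbour among tested genes that was called in the same direction, and of the 84 called lower, 5 (5.95%) did. A neighbour called in the opposite direction was found for 3 genes called higher and 3 called lower. Of all tested genes 0.82% were called higher and 0.428% lower, and the share of them with a called neighbour was not counted. Some neighbours are close copies whose reads may not have been divided correctly, so these counts are descriptions only. The runs included IGMT3, IGMT2 and IGMT4, GSTF7 and GSTF6, GSTU24 and GSTU25, GSTU2 and GSTU1, AT1G78830 and AT1G78850, AT2G39518 and AT2G39530, PTR1 and AT3G54150, and the peroxidase genes AT4G37520 and AT4G37530. Among genes called lower they were XTH12 with XTH13, and AT5G45480, AT5G45490 and AT5G45500 on chromosome 5.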

How the data were processed

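RNA-seq values of roots were deposited by the authors in TPM for each transcript model. For what the authors ran, the submitters' processing notes name Salmon and DESeq2 with no version or role; per the labels libraries were made with a stranded mRNA kit. Genome build and annotation: not given in the sources used here. The unit was read from the values, and no step recovers read counts from TPM. Values of 40812 transcript models were summed to 32753 genes, of which 32048 matched RefSeq TAIR10.1 locus tags, used for names, positions and promoters. The wild-type columns of this set lack a digit of their titles and were matched by elimination.

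Genes with at least 1 TPM in at least 3 of the 12 libraries entered limma (version 3.58.1, R 4.3.3; group means, intensity trend) on the log2(TPM + 1) scale, and an adjusted p (Benjamini-Hochberg over all 19634 genes) under 0.05 was a call. Fold changes on this scale understate changes of weakly expressed genes, and a pseudocount of 1 was used. The same fit gave the 4 simple comparisons. The RGI5 and RGF1 sets were fitted separately. Gene lists are described by counts and medians, without set tests. The fit was checked on simulated data. The labels give no batch or date. Named genes were up to 12 called in each direction with the largest interaction and a mean of at least 1 TPM, up to 4 per list with the smallest p, and preset regulators; neighbours, promoter examples and the lists marked in the text were chosen later. The members and lists were chosen with earlier results of these data known. Replicate numbers recur across groups, but deviations from group means of the 13 same-number pairs correlated at -0.041 to 0.07, none above 0.1, so the numbers were not treated as pairs. Alternatives were other scalings, filters and pseudocounts, no variance trend, a joint fit of all 30 libraries, the replicate number as a block, and omission of each library. 1 further promoter sequence and 1 further pair of neighbouring called genes are not reported here.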

Additional observations from a re-analysis of the deposited data

Results flagged for a closer look

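The response to rapamycin differed between the RGI1 line and wild type in 245 genes by the limma test of the difference itself (161 higher, 84 lower). Each group held 3 libraries, too few to look for single libraries far from the rest of their group. The largest interactions, on the log2(TPM + 1) scale, are given here for the genes with a mean of at least 1 TPM.

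Among genes called higher, AT1G76728, a gene of unknown function, had the largest value (3.63). It was listed at 0 in all 3 line mock libraries and all 3 of wild type with rapamycin, at 0, 0 and 3.36 TPM in wild-type mock, and at 6.46, 6.78 and 6.44 TPM in the line with rapamycin, so the size depends on the pseudocount. It was 7.76 with a pseudocount of 0.1 and 1.46 with 5. IGMT2 followed at 2.07, GSTF6 at 1.96, GSTF7 at 1.61, the lectin gene AT3G16530 at 1.56, CYP71A12 at 1.55, AT3G21352 at 1.504 and IGMT4 at 1.499. AT5G39580 stood at 1.29, AT1G17147, a gene of the VQ family, at 1.28, AT5G64120 at 1.19 and PLA2A, a lipid hydrolase of defence, at 1.14. AT3G21352, AT1G17147 and PLA2A lost their calls when single libraries were left out, with highest adjusted p of 0.0571, 0.0734 and 0.101 in limma.

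Among genes called lower, XTH26 stood at -1.65, AT2G36690 at -1.61, AT1G19960 at -1.45, FLA6 at -1.22, the peroxidase gene AT5G19890 at -1.17 and AT4G21870, a small heat shock-like protein gene, at -1.15. AT1G34510 followed at -1.10, SULTR1;1 at -1.08, ERF73 at -1.04, XTH13 at -1.03, AT1G33055 at -0.99 and the leucine-rich repeat kinase gene AT4G20450 at -0.97. AT1G19960, FLA6, AT5G19890 and AT4G21870 lost their calls when single libraries were left out, with highest adjusted p of 0.0685, 0.0938, 0.11 and 0.103.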

How the results depend on the processing

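Of the 245 interaction calls, 13 were kept under all 10 other alternatives and all 12 library omissions. No filter on low values gave 150 calls (99 higher, 51 lower), an absolute log2 difference of at least 1 gave 31 (21 and 10), no variance trend 179 with 54 lower, and all 30 libraries in a single fit 28 (17 and 11), all 28 among the 245; the causes were not tested. The fit of all 30 libraries shares a spread with sets not used here. Leaving out 1 library gave 116 to 258 calls, 83 to 155 higher and 33 to 106 lower. With the replicate number as a block, 55 genes were called (36 higher, 19 lower), 51 of them among the 245. Deviations of same-number pairs correlated at a median of 0.033 and those of other pairs at -0.019. No same-number pair exceeded 0.1, a check that weak pairing could pass. Of the 56 called genes that the naming rules give, 37 kept their call in every omission, 22 with the block and 11 in the fit of all 30. The RGI5 interaction, with 0 calls, had 127 in the fit of all 30 libraries and 0 to 48 without a library, the 48 without wild-type mock replicate 4. Over all genes and counts followed, 0 values reversed. Since TPM keep no depth, counting error of weakly expressed genes could not be given.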

Other observations

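Genes for peptide and hormone signals other than RGF were among those called, singled out here after their values had been seen. PSK5 (AT5G65870) and PSK4 (AT3G49780), precursors of the growth peptide phytosulfokine, were both called higher. PSK5 stood at 36.9 to 45.9 TPM in wild type, at 41.3, 46.5 and 40.2 TPM in line mock and at 73.7, 73.5 and 75.7 TPM in the line with rapamycin (interaction 0.83, SE 0.12, limma adjusted p = 0.00703). The line with rapamycin lay above all other libraries. PSK4 moved in the line from 146, 158 and 169 TPM to 270.2, 322 and 215 TPM, against 218 to 306 TPM in wild type (0.98, SE 0.18, adjusted p = 0.0224; called in 6 of the 12 library omissions). CKX4 (AT4G29740), a cytokinin-degrading oxidase, moved in the line from 6.17, 5.504 and 5.78 TPM to 10.1, 12.01 and 11.6 TPM, with 9.30 to 11.8 TPM in wild type (0.88, SE 0.13, adjusted p = 0.00662).

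The abscisic acid receptor gene PYL5 (AT5G05440) was called lower, at 73.0 to 85.3 TPM in wild type, at 66.7, 69.2 and 65.5 TPM in line mock and at 42.0, 42.2 and 43.7 TPM in the line with rapamycin (-0.71, SE 0.08, adjusted p = 0.00152). PYL6, its relative, differed by -0.77 (SE 0.17, adjusted p = 0.0486) and kept the call in 2 of the 12 library omissions. The alternative oxidase gene AOX1A (AT3G22370) was called higher, with 14.3, 14.2 and 13.9 TPM in line mock and 19.1, 22.2 and 20.9 TPM in the line with rapamycin, against 16.1 to 20.2 TPM in wild type (0.64, SE 0.10, adjusted p = 0.00751). CYP710A2 (AT2G34490), a sterol desaturase gene, was called lower although it was higher in the line than in wild type under both treatments, at 10.11 to 14.8 TPM in wild type, at 25.5, 28.3 and 26.5 TPM in line mock and at 19.7, 21.3 and 23.2 TPM in the line with rapamycin (-0.65, SE 0.10, adjusted p = 0.00751).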
